A study of Mus musculus with 13 samples.

Results

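Genes that mark fibroblasts and progenitor cells of the arterial adventitia were followed through 13 aortas, 10 in all: Pdgfra, Pi16, Dpt, Cd34, Ly6a, Gli1, Clec3b, Dpp4, Serpinf1 and Postn. The 10 members were taken by name from the 54532 genes of the count table, by a list made with earlier results of these data known, and all 10 passed the filter on low counts that left 15811 genes to test. Every mouse was an ApoE knockout that received angiotensin II (AngII) from a subcutaneous slow-release pump at 1000 ng/kg/min for 28 days, from about 10 weeks of age, which is a model of abdominal aortic aneurysm. In 6 mice (Ad-sham) an adenovirus made from the vector without the mouse Fam3a insert was injected into the tail vein, and 7 mice (Ad-FAM3A) received the virus that carries the insert, with 5 injections in each case. The study's methods name both an EF1A and a CMV construct, so the promoter is not settled here. The virus was given through the blood, and each library was made from whole aorta, so a value averages over all cells of the vessel and of the tissue attached to it. The study uses mice of either sex, and the sex of the sequenced mice is not given in the sources used here.

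The adventitia is the outer coat of an artery, a layer of collagen, fibroblasts, small vessels and nerves outside the smooth muscle of the media. Its fibroblasts carry the receptor Pdgfra and secrete matrix proteins. A subset next to the surrounding fat carries Pi16, Dpp4, Cd34 and Ly6a (Sca-1) and is regarded as a reserve of progenitors, while hedgehog signaling, read out by Gli1, marks another pool of perivascular progenitor cells. After injury, fibroblasts take on an activated state with more Postn. The study asked, by other assays, whether FAM3A keeps smooth muscle cells from turning into fibroblast-like and other intermediate cells, with CD34 as its marker of a mesenchymal-like and lumican of a fibroblast-like state, so that the comparison of the 2 virus groups bears on the level of these genes in the vessel.

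Between the virus groups, 0 of the 10 members passed the test, as did 0% of all genes tested. The log2 fold change was below 0 for 8 members, from -0.21 to -0.55, and for 49.6% of all genes, and above 0 for Dpp4 (0.13), Postn (0.49) and 50.4% of all genes. A single aorta, Ad-FAM3A6, had the lowest level of 6 members and the highest level of Dpp4. The share of all genes tested that were lowest in that aorta was not computed. Between aortas, 14 of the 45 pairs of members had a correlation that passed its test, 12 of them positive and 9 of these among Dpt, Cd34, Gli1, Pi16 and Serpinf1. Without Ad-FAM3A6 the lowest r of the 12 was 0.415, for Dpt and Gli1. No pair passed by rank, and the pairs of Pi16 with the other 4 had r of 0.016 to 0.29 within Ad-sham. Dpp4 was low where smooth muscle genes were high. How often other genes or pairs of genes would pass these correlation tests was not computed.

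The sequences before the start sites of 4 members are shown because they give the extremes of that pattern among the 7 members with a promoter sequence. Dpt and Cd34, both on chromosome 1, followed each other most closely. Of these 7, Dpp4 and Postn had the lowest median r with the other members, -0.597 and 0.397. Ly6a, at 0.210, lay below Postn but had no promoter sequence to show. Each line holds the 250 bases before the start site, 5′ to 3′ on the strand of the gene, from RefSeq on GRCm38.p6, and capitals mark CANNTG (the E-box) and TATAAA (the TATA sequence).
Dpt (chr1:164796413-164796662, plus strand): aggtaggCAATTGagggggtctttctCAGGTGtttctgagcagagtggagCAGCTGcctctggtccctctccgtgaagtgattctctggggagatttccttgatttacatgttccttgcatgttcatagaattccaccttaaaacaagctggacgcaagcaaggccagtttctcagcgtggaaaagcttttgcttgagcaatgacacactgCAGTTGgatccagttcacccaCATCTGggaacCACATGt
Cd34 (chr1:194938571-194938820, plus strand): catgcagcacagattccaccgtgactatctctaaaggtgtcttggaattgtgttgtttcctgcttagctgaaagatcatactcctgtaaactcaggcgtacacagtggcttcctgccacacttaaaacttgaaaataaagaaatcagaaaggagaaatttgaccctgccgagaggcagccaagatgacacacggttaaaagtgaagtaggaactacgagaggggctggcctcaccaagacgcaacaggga
Dpp4 (chr2:62412232-62412481, minus strand): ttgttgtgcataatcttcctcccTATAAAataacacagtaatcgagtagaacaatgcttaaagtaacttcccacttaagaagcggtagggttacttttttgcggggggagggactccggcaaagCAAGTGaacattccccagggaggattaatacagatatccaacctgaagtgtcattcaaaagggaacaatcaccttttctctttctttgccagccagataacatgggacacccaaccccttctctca
Postn (chr3:54360857-54361106, plus strand): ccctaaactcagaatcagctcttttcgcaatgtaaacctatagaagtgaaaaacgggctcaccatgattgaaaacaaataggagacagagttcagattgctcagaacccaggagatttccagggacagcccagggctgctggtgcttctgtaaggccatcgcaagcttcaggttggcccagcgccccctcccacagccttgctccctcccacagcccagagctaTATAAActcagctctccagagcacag

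In the RefSeq promoter table used here, 7 of the 10 members had an entry. The table holds 32851 start sites. The window of Dpt held 6 matches to CANNTG, a sequence that reads the same on both strands, and 66.2% of all windows of the same length held at least 1 match and 0.274% at least 6. No match was found in the window of Cd34 or of Postn, and 1 in that of Dpp4. TATAAA, searched on both strands, was in 12.4% of all windows. The match of Postn began 26 bases before the start site, on the strand of the gene, and 1.84% of windows had a match on that strand beginning 35 to 20 bases before the start. The match of Dpp4 began 227 bases before it. GGGCGG (the GC box), which 32.7% of windows held on either strand, was in none of the 7 members' windows, and CACCC (the core bound by Krüppel-like factors), which 52.0% held on either strand, was found in those of Pdgfra, Pi16, Dpt, Dpp4 and Serpinf1. The window of Cd34 held none of the 4 motifs searched, and that of Dpt 2 of them. A match is a description of the letters and not a bound site.

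Library sizes ran from 14481179 to 19797407 counts on genes, and the 3 counts that an observed 0 leaves possible corresponded to 0.140 to 0.221 CPM, which covers counting error only. CPM are counts scaled to a common library total, here after TMM correction for library size and composition. The member with the lowest count, Gli1, had 30 to 329 reads per aorta, and the one with the highest, Postn, had 8344 to 42956. Fam3a itself had 24.4 ± 4.27 CPM (SD, n = 6) under Ad-sham and 24.0 ± 4.64 CPM (SD, n = 7) under Ad-FAM3A, so every direction here refers to the labels. Markers of several other cell types were present and uneven. The summed level of 10 smooth muscle markers was 3327 to 13977 CPM in Ad-sham and 2559 to 20120 CPM in Ad-FAM3A aortas, that of 10 adipocyte markers 4914 to 15643 and 3296 to 9202 CPM, and that of 16 general fibroblast genes 8893 to 21194 and 4632 to 14852 CPM. The sum of 8 B cell markers did not pass 53.3 CPM in 11 of the aortas but reached 840 CPM in Ad-FAM3A6 and 334 in Ad-FAM3A7, and that of 9 T cell markers was 593 CPM in Ad-FAM3A6, 266 CPM in Ad-sham4, 95.8 CPM in Ad-FAM3A7 and at most 40.1 CPM in the other 10. The members' fold changes, and the correlations that passed, singly or as a range, are also given without these 2 aortas. The sum of 8 mesothelium markers had medians of 14.9 CPM in both groups, with 187 CPM in Ad-sham3 and 73.5 CPM in Ad-sham1. It was 51.7 CPM in Ad-FAM3A1 and 37.7 CPM in Ad-FAM3A6.

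Per length of gene, the members spanned a 113-fold range of mean level over the 13 aortas. In FPKM, which are CPM divided by gene length in kilobases and were computed here from the counts and the gene lengths of the table, Ly6a was at 212 ± 50.5, Postn at 200.04 ± 88.3, Dpt at 139 ± 36.7, Clec3b at 113 ± 59.7 and Serpinf1 at 92.6 ± 33.0 (SD, n = 13). Below them stood Pi16 at 63.3 ± 23.3, Cd34 at 23.8 ± 4.71, Pdgfra at 9.73 ± 3.46, Dpp4 at 2.02 ± 1.5 and Gli1 at 1.87 ± 0.794 FPKM (SD, n = 13). The surface antigen Ly6a and 4 genes of secreted proteins thus lay at the top, and the receptor, the peptidase and the transcription factor at the bottom. Of the 9 neighbouring pairs in this order, 4 differed beyond the spread of their ratio between aortas after adjustment over the 9: Serpinf1 over Pi16, Pi16 over Cd34, Cd34 over Pdgfra and Pdgfra over Dpp4 (exact two-sided sign-flip permutation test of the log2 ratio, adjusted p = 0.0011 for each). Neighbours among the first 5, and Dpp4 and Gli1, did not pass this test, and pairs farther apart in the order were not tested. For Dpp4 and Gli1 the mean log2 ratio was -0.022 ± 1.66 (SD, n = 13), and Dpp4 was the higher of the 2 in 6 of 13 aortas.

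**Figure D1:**
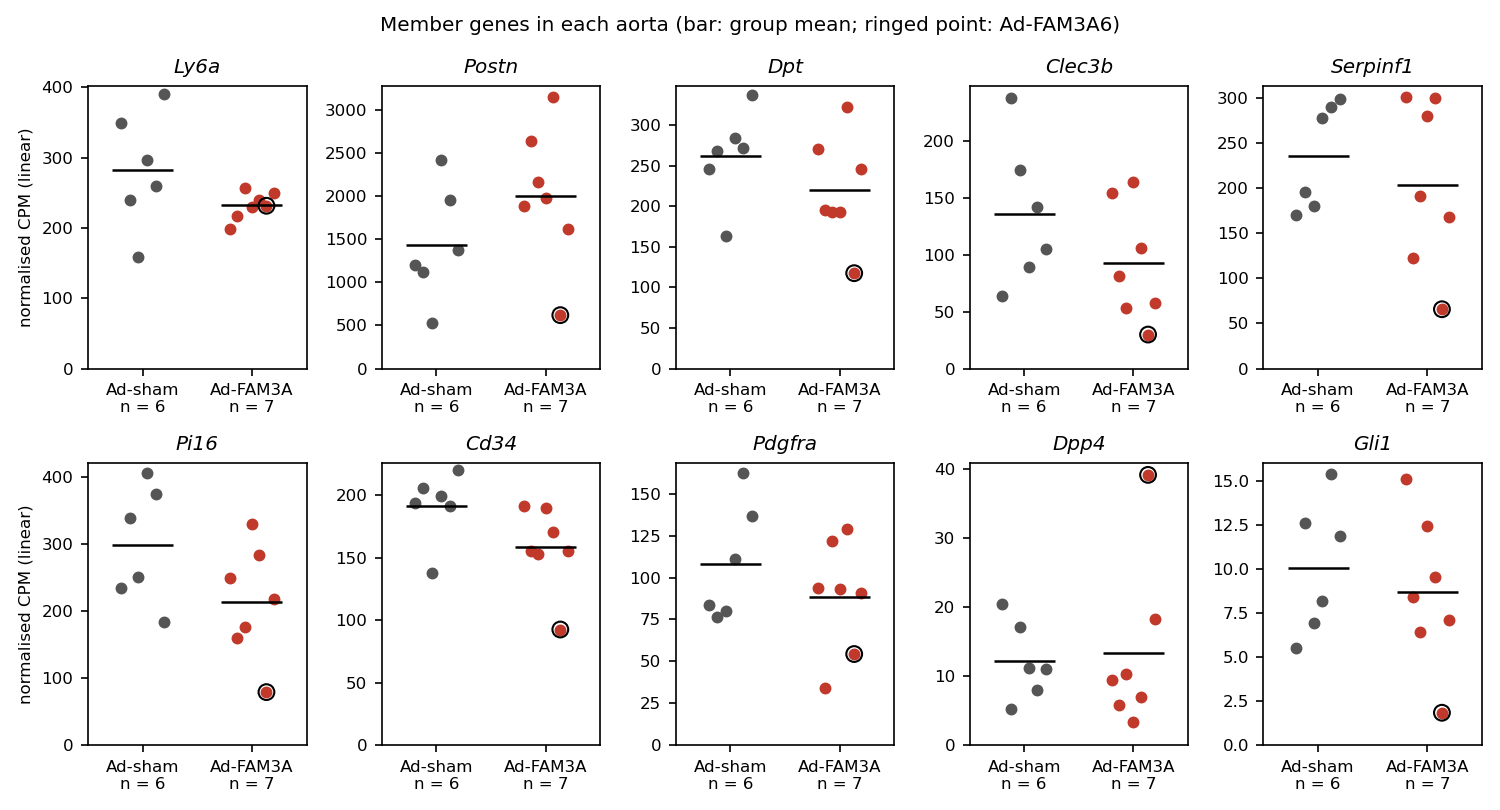
Normalised CPM (linear axis from 0) of the 10 members in each aorta, ordered by mean FPKM, with 6 Ad-sham aortas in grey and 7 Ad-FAM3A aortas in red; bars are group means and the ring marks Ad-FAM3A6. The groups overlap for every member, Ly6a is narrow in Ad-FAM3A (199 to 257 CPM), and Ad-FAM3A6 is lowest for 6 members and highest for Dpp4 (39.1 CPM). The share of all genes lowest in Ad-FAM3A6 was not computed.

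Pdgfra (ENSMUSG00000029231, chromosome 5 of GRCm38, 75152292 to 75198215) encodes the receptor for PDGF-A and PDGF-C that marks fibroblasts throughout the body. Its level was 76.7, 97.4 and 162 CPM in the lowest, median and highest Ad-sham aorta and 33.9, 93.4 and 129 CPM in Ad-FAM3A. The 2 lowest values, 33.9 CPM in Ad-FAM3A2 and 54.4 CPM in Ad-FAM3A6, lay below all Ad-sham aortas, and the other 5 lay within their range. Between the groups Pdgfra had a log2 fold change of -0.30 (standard error 0.29; exact two-sided permutation p = 0.311), and it was -0.14 without Ad-FAM3A2 and -0.21 without Ad-FAM3A6 and Ad-FAM3A7.

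Pi16 (ENSMUSG00000024011, chromosome 17, 29318877 to 29329413) encodes a secreted peptidase inhibitor-like protein and is the marker by which the adventitial reserve population is usually named. It was at 184, 295 and 406 CPM in the lowest, median and highest Ad-sham aorta and at 79.0, 217 and 329 CPM in Ad-FAM3A, where 6 of 7 aortas were below the Ad-sham median and 3 below every Ad-sham aorta. The log2 fold change of -0.48 (standard error 0.29) had an interval from -1.10 to 0.14 and an unadjusted p of 0.117 by edgeR's quasi-likelihood F test (adjusted p = 0.812 over all genes). Leaving out single aortas moved it between -0.61 and -0.34, the latter without Ad-FAM3A6, and it was -0.31 without Ad-FAM3A6 and Ad-FAM3A7.

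Dpp4 (ENSMUSG00000035000, chromosome 2, 62330073 to 62412231), a surface peptidase of the same reserve population and also of T cells, did not follow Pi16. Its level was 5.15, 11.1 and 20.4 CPM in the lowest, median and highest Ad-sham aorta and 3.26, 9.35 and 39.1 CPM in Ad-FAM3A. In Ad-FAM3A, 5 of 7 aortas were below the Ad-sham median, and the higher mean of 13.3 ± 12.3 CPM (SD, n = 7) against 12.1 ± 5.68 CPM (SD, n = 6) came with 39.1 CPM in Ad-FAM3A6, the only aorta above all Ad-sham aortas. Dpp4 had a log2 fold change of 0.13 (standard error 0.51), -0.45 without Ad-FAM3A6 and -0.79 without Ad-FAM3A6 and Ad-FAM3A7 (unadjusted p = 0.0603, adjusted p = 0.776 by edgeR's quasi-likelihood F test). It was also below 0, at -0.026, without Ad-sham2, so that the direction of Dpp4 between the groups depended on single aortas. Ad-FAM3A6 was the aorta with the highest B and T cell markers, and their part in its Dpp4 level was not tested.

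Cd34 (ENSMUSG00000016494, chromosome 1, 194938819 to 194961279) encodes a sialomucin of progenitor cells that endothelial cells also carry. Levels were 138, 197 and 220 CPM in the lowest, median and highest Ad-sham aorta and 92.6, 156 and 191 CPM in Ad-FAM3A, the smallest spread of the 10 in Ad-sham. All 7 Ad-FAM3A aortas were below the Ad-sham median, as were 4.6% of the genes tested, and Ad-sham3, at 138 CPM, lay inside the Ad-FAM3A range, so that the groups overlapped, which was the case for all but 0.0949% of genes. For Cd34 the log2 fold change was -0.27 (standard error 0.17; exact two-sided permutation p = 0.0962), -0.35 without Ad-sham3 and -0.16 without Ad-FAM3A6 and Ad-FAM3A7.

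Ly6a (ENSMUSG00000075602, chromosome 15, 74994877 to 74998031), the gene of the surface antigen Sca-1 that endothelial and some immune cells share, was the other member with all 7 Ad-FAM3A aortas below the Ad-sham median. It was at 158, 278 and 390 CPM in the lowest, median and highest Ad-sham aorta and at 199, 231 and 257 CPM in Ad-FAM3A. All the Ad-FAM3A values lay inside the Ad-sham range. The log2 fold change was -0.28 (standard error 0.18; exact two-sided permutation p = 0.231), and it was -0.17 without Ad-sham6, -0.40 without Ad-sham3 and -0.31 without Ad-FAM3A6 and Ad-FAM3A7. What set Ly6a apart was its spread: the standard deviation of log2 CPM was 0.46 in Ad-sham and 0.13 in Ad-FAM3A, a ratio of 0.273, and 0.304% of the genes tested had a ratio as low, the median ratio over all genes being 1.06. The other 9 members had ratios of 0.993 to 2.16. Equality of spread was not tested.

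Dpt (ENSMUSG00000026574, chromosome 1, 164796644 to 164824266) encodes dermatopontin, a small matrix protein that binds decorin and marks fibroblasts across organs. Its level was 163, 270 and 337 CPM in the lowest, median and highest Ad-sham aorta and 117, 196 and 322 CPM in Ad-FAM3A. The groups overlapped over nearly their whole range, with Ad-FAM3A6 alone below all Ad-sham aortas. The difference in log2 was -0.25 (standard error 0.22; exact two-sided permutation p = 0.262), -0.14 without Ad-FAM3A6 and -0.16 without Ad-FAM3A6 and Ad-FAM3A7.

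Clec3b (ENSMUSG00000025784, chromosome 9, 123150946 to 123157432), which encodes the secreted plasminogen-binding protein tetranectin, had the lowest log2 fold change of the 10, -0.55 (standard error 0.39). It ranged from 64.0 through a median of 124 to 238 CPM in Ad-sham and from 29.8 through 81.5 to 164 CPM in Ad-FAM3A, a 7.97-fold range over the 13 aortas. Below all Ad-sham aortas were 3 Ad-FAM3A aortas, and 0 were above them. The difference was within the spread (exact two-sided permutation p = 0.178), and it was -0.31 without Ad-sham2, the aorta with the highest level, and -0.28 without Ad-FAM3A6 and Ad-FAM3A7.

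Serpinf1 (ENSMUSG00000000753, chromosome 11, 75409769 to 75422701) encodes PEDF, a secreted serpin that restrains the growth of vessels. Levels were 170, 237 and 299 CPM in the lowest, median and highest Ad-sham aorta and 65.7, 191 and 301 CPM in Ad-FAM3A. Its Ad-FAM3A aortas spread past the Ad-sham range on both sides, 3 below and 2 above it. The log2 fold change was -0.21 (standard error 0.31; exact two-sided permutation p = 0.397), -0.053 without Ad-FAM3A6 and 0.020 without Ad-FAM3A6 and Ad-FAM3A7.

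Gli1 (ENSMUSG00000025407, chromosome 10, 127329882 to 127341974), the transcription factor that is itself a target of hedgehog signaling, was at 5.49, 10.1 and 15.4 CPM in the lowest, median and highest Ad-sham aorta. In Ad-FAM3A it was at 1.83, 8.42 and 15.1 CPM. The value of 1.83 CPM in Ad-FAM3A6 stood below all others, and without that aorta the log2 fold change of -0.21 (standard error 0.38; exact two-sided permutation p = 0.521) was -0.031. It was 0.046 without Ad-FAM3A6 and Ad-FAM3A7. The last 62 bases of Gli1 overlap Arhgap9, a gene on the opposite strand with 75 to 718 reads per aorta, and since no source used here gives the strand setting with which reads were counted, reads of the 2 genes in that stretch cannot be told apart.

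Postn (ENSMUSG00000027750, chromosome 3, 54361109 to 54391037), the gene of the matrix protein periostin that activated fibroblasts and smooth muscle cells secrete, was the member with the highest log2 fold change. It was at 527, 1288 and 2416 CPM in the lowest, median and highest Ad-sham aorta and at 618, 1975 and 3143 CPM in Ad-FAM3A. In Ad-FAM3A, 6 of 7 aortas were above the Ad-sham median and 2 above every Ad-sham aorta, while Ad-FAM3A6 was near the bottom. For Postn the log2 fold change was 0.49 (standard error 0.37; exact two-sided permutation p = 0.272), 0.31 without Ad-sham3 and 0.73 without Ad-FAM3A6 and Ad-FAM3A7 (unadjusted p = 0.0471, adjusted p = 0.776 by edgeR's quasi-likelihood F test).

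Over the 10 members together, 0 were differentially expressed by edgeR's quasi-likelihood test (both an adjusted p under 0.05 and an absolute log2 fold change over 1), and 0 had an unadjusted p under 0.05. Over all genes tested these shares were 0% and 5.91%, the latter made up of 2.98% higher and 2.93% lower in Ad-FAM3A, with a smallest adjusted p of 0.810, and DESeq2 called 10 genes, of which 0 were members. A log2 fold change below 0 was found in 8 of 10 members and in 49.6% of all genes, and the members' median was -0.26 against 0.0032 over all genes. That median was -0.17 without Ad-sham6, -0.36 without Ad-sham3 and -0.18 without Ad-FAM3A6 and Ad-FAM3A7. All 7 Ad-FAM3A aortas were below the Ad-sham median for 2 of 10 members, Cd34 and Ly6a, and for 4.6% of all genes, and all 7 were above it for 0 of 10 members and for 2.99% of all genes. The 8 lower members include genes that vary together between aortas, so that they are not 8 separate observations. In whole tissue, fewer cells of a type and less RNA per cell cannot be told apart.

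**Figure D2:**
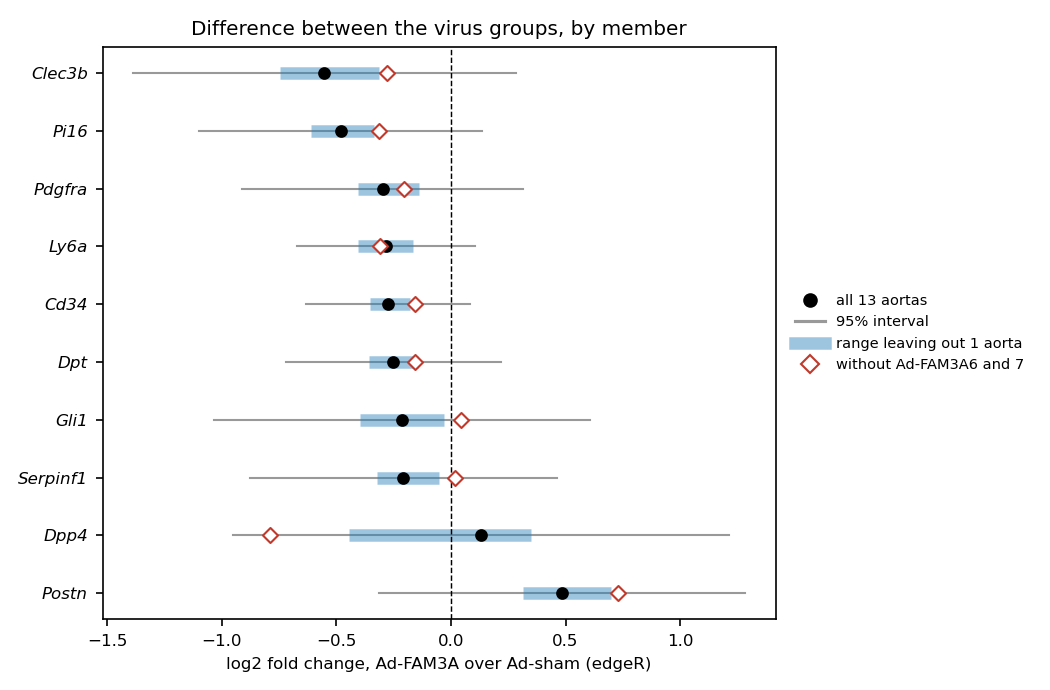
Log2 fold change of each member, Ad-FAM3A over Ad-sham, from edgeR (black points) with its 95% interval (grey), the range on leaving out each aorta in turn (blue) and the value without Ad-FAM3A6 and Ad-FAM3A7 (open diamonds). All 10 intervals include 0, and the diamonds of Dpp4, Gli1 and Serpinf1 lie across 0 from their points.

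To set the members against their own cell class, each was divided by the summed CPM of 16 general fibroblast genes (Dcn, Lum, Col1a1, Col1a2, Col3a1, Fbln1, Mfap4, Pcolce, Islr, Tcf21, Gsn, Thy1, Fap, Cygb, Vcan and Mmp2). Relative to these genes, Postn was the member that differed between the groups before adjustment. Its CPM equalled 12.0, 12.4, 5.92, 16, 9.23 and 9.04% of that sum in Ad-sham aortas 1 to 6, and 13.4, 35, 15.6, 17.3, 21.2, 13.3 and 16.1% in Ad-FAM3A aortas 1 to 7. All 7 Ad-FAM3A aortas were above the Ad-sham median, as were 5.83% of the genes tested, and 1 Ad-sham aorta, Ad-sham4, reached into their range. The log2 difference was 0.80 (exact two-sided permutation p = 0.00758), between 0.63 and 0.92 on leaving out each aorta in turn, and 0.91 without Ad-FAM3A6 and Ad-FAM3A7. Computed in the same way for every gene, 4.4% had an unadjusted p under 0.05, nearly all of them, 4.35% of all genes, in the higher direction like Postn, and Postn ranked 75 of 15811, with an adjusted p of 0.898 over all genes, so that it did not pass the correction. Postn also correlated with smooth muscle markers over the 13 aortas (r = 0.697, permutation test, adjusted p = 0.0425), and their part in its ratio was not tested. With Pdgfra, Dcn and Lum as the reference the log2 difference of Postn was 0.69 (exact two-sided permutation p = 0.0501). The log2 differences of the other 9 members in this ratio ran from -0.33 for Clec3b to 0.15 for Dpp4, with exact permutation p from 0.361 to 0.984. For Cd34 it was 0.0057, with shares of 0.903 to 2.29% in Ad-sham and 1.10 to 2.06% in Ad-FAM3A, and the signs of Pdgfra, Dpt, Cd34, Ly6a, Gli1, Dpp4 and Serpinf1 turned under another reference or without some aortas.

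**Figure D3:**
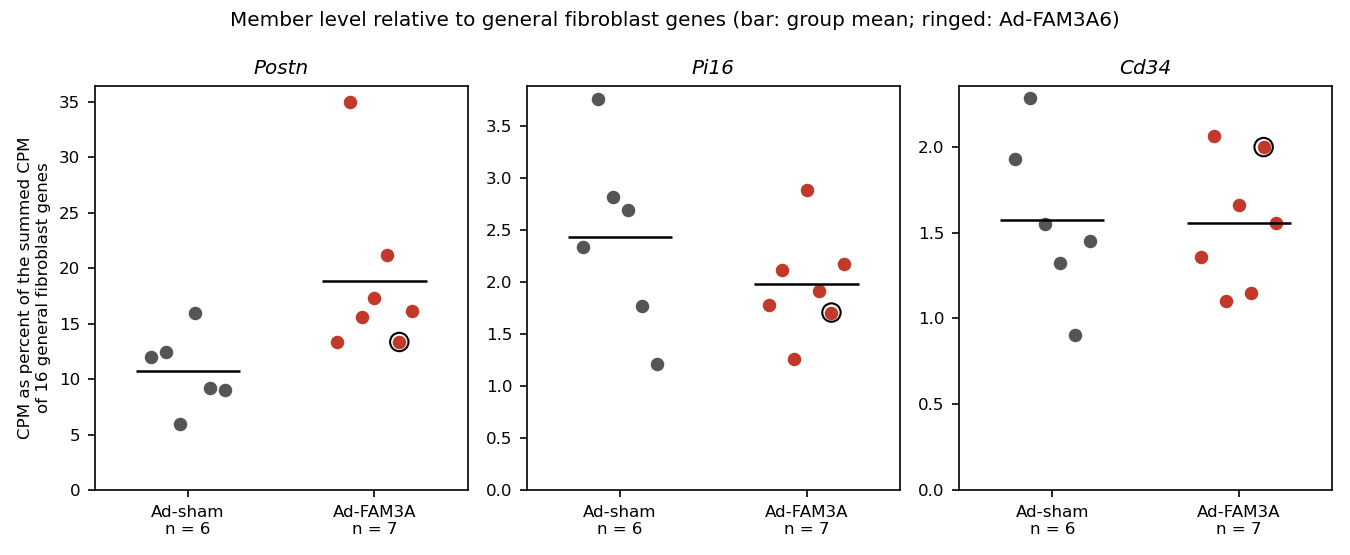
CPM of Postn, Pi16 and Cd34 as a percent of the summed CPM of 16 general fibroblast genes in each aorta (linear axes from 0), with group means as bars and Ad-FAM3A6 ringed. Postn spans 5.92 to 16% in 6 Ad-sham and 13.3 to 35% in 7 Ad-FAM3A aortas, and the groups overlap for Postn, through Ad-sham4, as they do for Pi16 and Cd34.

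Across the 13 aortas 5 members, Dpt, Cd34, Gli1, Pi16 and Serpinf1, formed the positive pairs for the most part, Clec3b took part through Gli1 and Pi16, and Pdgfra through Serpinf1. Correlations of log2 CPM were computed for the 45 pairs of members and for each member against the mean log2 CPM of 8 cell type lists, 125 relations in all, with permutation p adjusted over the 125. Of the 45 pairs, 14 passed at an adjusted p under 0.05, 12 of them positive. The share of all gene pairs that would pass was not computed, so the count does not mark these members off from other genes. Dpt and Cd34 had the highest Pearson r, 0.863 (Spearman's rho 0.791; permutation test, p = 0.018 adjusted for r and 0.0871 for rho), which was 0.970 within Ad-sham and 0.796 within Ad-FAM3A. Gli1 with Serpinf1 had r = 0.859, Cd34 with Gli1 0.840 and Gli1 with Clec3b 0.823. Gli1 took part in 6 of the 14 pairs, Serpinf1 in 5, and Pi16 and Cd34 in 4 each.

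Much of this structure was carried by Ad-FAM3A6. Without it, the 12 positive pairs had r between 0.415 and 0.785, without Ad-FAM3A6 and Ad-FAM3A7 between 0.391 and 0.809, and without the 2 aortas farthest from the median of the x gene, between 0.294 and 0.742. For Dpt and Cd34 the r was 0.721, 0.760 and 0.590. Within the 6 Ad-sham aortas alone the 12 pairs ran from 0.027 for Pi16 and Cd34 to 0.970 for Dpt and Cd34, and within the 7 Ad-FAM3A aortas from 0.706 to 0.991. By rank, 0 of the 45 pairs had an adjusted p under 0.05, the smallest being 0.0871. The lowest r without the 2 farthest aortas were 0.294 for Pi16 and Gli1, 0.363 for Pi16 and Serpinf1 and 0.393 for Dpt and Gli1. Deviations from the group means gave 19 pairs and library totals in place of TMM gave 13.

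Checked against the general fibroblast list, 6 members followed it: Serpinf1 (r = 0.899), Gli1 (0.791), Cd34 (0.779), Pdgfra (0.774), Dpt (0.772) and Pi16 (0.755), with adjusted permutation p from 0.0075 to 0.0334. The share of all genes tested that would pass with this list was not computed, so the count is not particular to the members. Serpinf1 had r = 0.903 within Ad-sham and 0.926 within Ad-FAM3A, and 0.788 without the 2 farthest aortas. Pdgfra was the member whose relation to the list also passed by rank (rho 0.863, adjusted permutation p = 0.0225), with r = 0.792 without Ad-FAM3A6. Gli1, Cd34, Dpt and Pi16 had r of 0.497, 0.469, 0.544 and 0.457 without that aorta, and without Ad-FAM3A6 and Ad-FAM3A7 the 6 members had r from 0.443 to 0.797. Clec3b (r = 0.452), Ly6a (0.306) and Dpp4 (-0.515) did not pass, and Postn (0.659) had an adjusted permutation p of 0.0597.

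Dpp4 did not join the positive pairs. Of its 9 correlations with members 8 were negative, and those with Gli1 (r = -0.786) and Clec3b (r = -0.690) passed, with adjusted permutation p of 0.0236 and 0.0425. Without Ad-FAM3A6, 6 of the 9 were below 0, and the 2 that had passed were at -0.628 and -0.506, and at -0.594 and -0.411 without Ad-FAM3A7 as well. Against the mean of 10 smooth muscle markers (Myh11, Acta2, Tagln, Cnn1, Smtn, Lmod1, Myocd, Des, Synpo2 and Mylk), genes of the contractile apparatus and its regulator, Dpp4 had r = -0.919 and rho = -0.863 (permutation test, adjusted p = 0.00125 and 0.0225), the strongest of the 125 relations. It was -0.855 within Ad-sham, -0.952 within Ad-FAM3A, -0.874 without Ad-FAM3A6, -0.873 without Ad-FAM3A6 and Ad-FAM3A7 and -0.858 without the 2 farthest aortas, Ad-FAM3A6 and Ad-sham1. The aorta with the lowest smooth muscle sum, Ad-FAM3A6 at 2559 CPM, had 39.1 CPM of Dpp4, and that with the highest, Ad-FAM3A4 at 20120 CPM, had 3.26 CPM. Between Dpp4 and the T cell markers r was 0.651 (adjusted permutation p = 0.0628), 0.369 without Ad-FAM3A6 and 0.220 without Ad-FAM3A6 and Ad-FAM3A7. Between Dpp4 and the B cell markers it was 0.623, 0.334 and 0.021. With the other genes of the Pi16-type population, r was -0.597 for Pi16, -0.612 for Cd34 and 0.090 for Ly6a, none of which passed (adjusted permutation p = 0.0953, 0.0874 and 0.839), and without Ad-FAM3A6 it was -0.27, -0.26 and 0.188. CPM are shares of 1 total per library, and the part of the smooth muscle RNA itself in this relation was not tested.

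Smooth muscle markers went with 3 members in the other direction: r was 0.795 for Gli1, 0.704 for Serpinf1 and 0.697 for Postn, with adjusted permutation p of 0.018, 0.038 and 0.0425, and 0.641, 0.446 and 0.577 without Ad-FAM3A6 and Ad-FAM3A7. Gli1, Serpinf1 and Cd34 also passed with the endothelial list (r = 0.730, 0.726 and 0.679, and 0.597, 0.573 and 0.485 without these 2 aortas). The share of all genes tested that would pass with the smooth muscle or endothelial list was not computed. No member passed with the adipocyte, macrophage, mesothelium, T cell or B cell list, whose r ran from -0.47 to 0.41 for adipocytes, from -0.49 to 0.43 for macrophages, from -0.65 to 0.54 for mesothelium, from -0.66 to 0.65 for T cells and from -0.60 to 0.62 for B cells. The smallest adjusted permutation p among these was 0.0565, for Clec3b and T cell markers (r = -0.659). Ly6a and Postn had no pair with another member that passed, and the median r of Ly6a with the other 9 was 0.210.

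**Figure D4:**
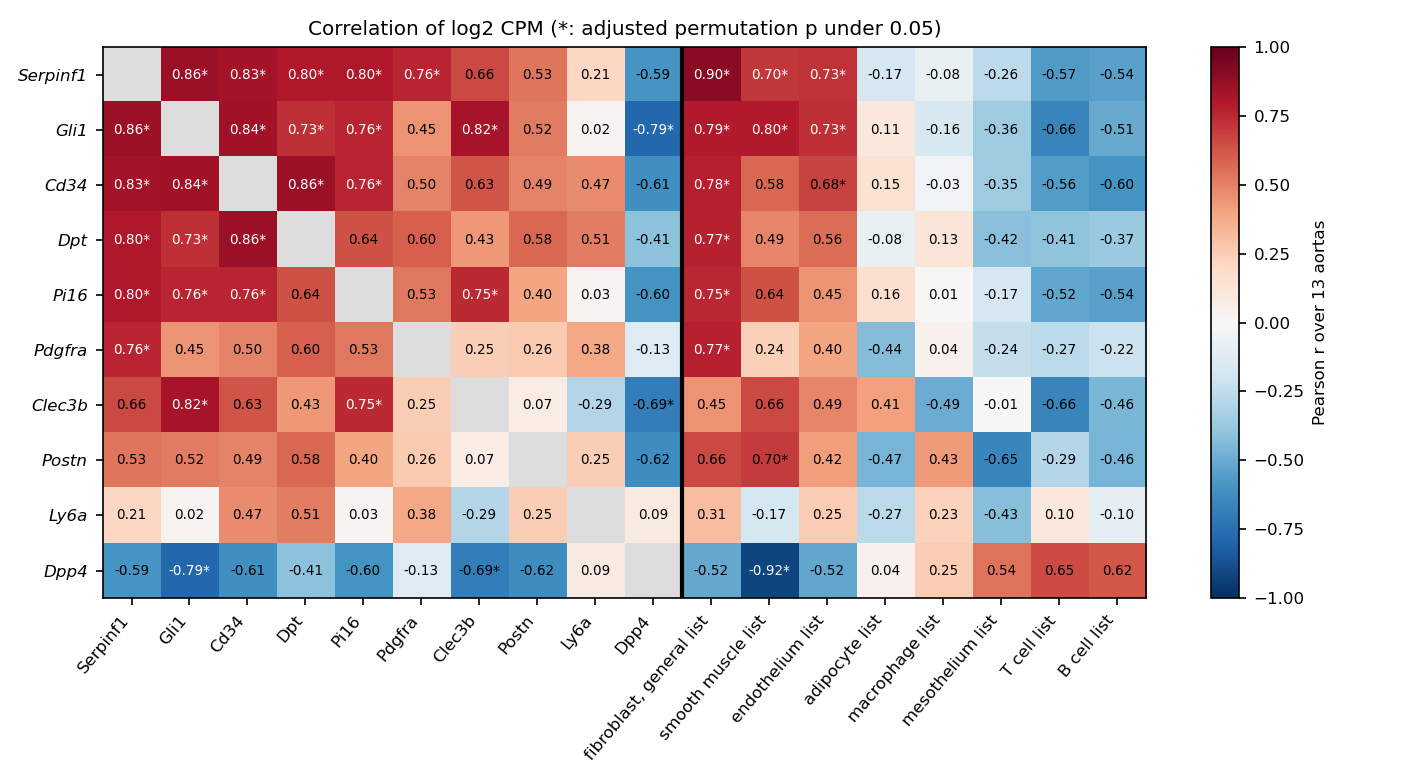
Pearson r of log2 CPM over 13 aortas between the 10 members (left of the line) and between members and the mean of 8 cell type lists (right), with stars where the permutation p adjusted over 125 relations was under 0.05. The block of Serpinf1, Gli1, Cd34, Dpt and Pi16 is positive throughout, and the row of Dpp4 is mostly negative, down to -0.92 with smooth muscle.

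**Figure D5:**
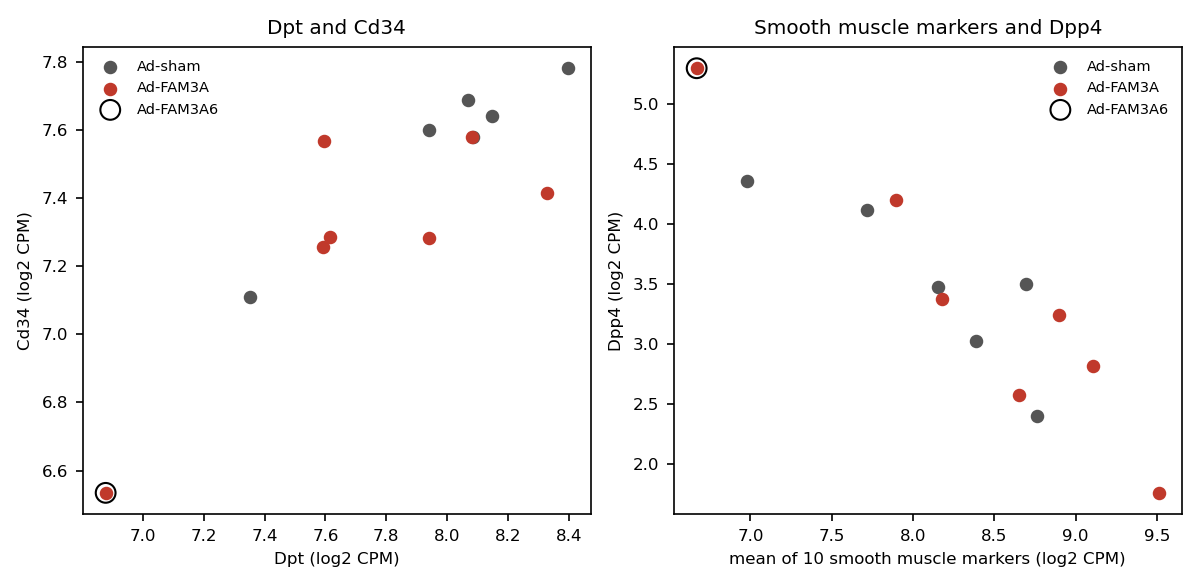
Log2 CPM of Cd34 against Dpt (left) and of Dpp4 against the mean of 10 smooth muscle markers (right), 1 point per aorta, Ad-sham in grey, Ad-FAM3A in red and Ad-FAM3A6 ringed. Dpt and Cd34 are high and low together (r = 0.863), and Dpp4 is lower where smooth muscle markers are higher in both groups (r = -0.919).

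With the smooth muscle score as a covariate, an alternative chosen after seeing the data, the log2 fold change was larger in size for 8 members and smaller for Ly6a and Postn (-0.26 and 0.24). Log2 fold changes were -0.73 for Pi16 (standard error 0.19), -0.95 for Clec3b (0.25), -0.60 for Gli1 (0.24) and -0.51 for Serpinf1 (0.22), and that of Cd34 was -0.38 (0.13). These 5 had an unadjusted p under 0.05, against 7.16% of all genes in that fit, and the smallest adjusted p of a member by edgeR's quasi-likelihood F test was 0.675. The score itself was made from the same libraries, and all 10 smooth muscle markers had a log2 fold change above 0 (median 0.33) with 0 called. Adjusting for the adipocyte score instead, whose 10 markers all had a log2 fold change below 0 (median -0.62) with 0 called, gave -0.56 for Pdgfra (unadjusted p = 0.0442), -0.39 for Ly6a (0.0502), -0.32 for Clec3b (0.445) and 0.32 for Postn (0.404), each with an adjusted p of 0.982 by edgeR's quasi-likelihood F test.

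The genes whose pattern over the 13 aortas was most like each member, by Pearson r of log2 CPM, are given as a description. Gli1 was followed most closely by Boc (0.955), a hedgehog co-receptor, Fzd2 (0.947), a Wnt receptor, and Prdm6 (0.940). Postn was followed by Kdelr3 (0.970), a receptor that returns proteins to the endoplasmic reticulum, Nov (0.964), a matricellular protein also called Ccn3, and Fbln5 (0.963), a protein of elastic fibres. These 3 had log2 fold changes of 0.25, 0.75 and 0.45. For Serpinf1 the nearest were Pdgfrl (0.956), Plpp3 (0.955) and Thbs3 (0.95), for Pdgfra they were Gria4 (0.960), Ssc5d (0.946) and Phactr2 (0.940), and for Pi16 Pcolce (0.938), which enhances collagen processing, Ggcx (0.899) and Dag1 (0.895). The nearest to Clec3b were Vit (0.935), 2700081O15Rik (0.927) and Zfp629 (0.920), to Dpt Tm7sf3 (0.917), Naalad2 (0.905) and C1qtnf7 (0.902), and to Cd34 Mr1 (0.907), Ift81 (0.90) and Rnase4 (0.899). Those of Dpp4 were Wnt9b (0.925), Fam49a (0.916) and St8sia4 (0.906), and those of Ly6a were Haus2 (0.914), Mlh3 (0.879) and Nr2c1 (0.816). Among these 3 nearest genes of each member, Pcolce was the only one in a fibroblast list. Within the nearest 20 were also Dcn for Dpt (0.838), Islr for Gli1 (0.894) and Fbln1 for Serpinf1 (0.904). For Clec3b they were Igfbp6 (0.903) and Gsn (0.899).

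Other genes of the same programmes were taken from lists. Of the 16 general fibroblast genes, 4 had a higher and 12 a lower level in Ad-FAM3A, with a median log2 fold change of -0.25 and 0 called, which is close to the members' median. Gsn, an actin-severing protein, and Col1a1 had the highest level per length, 620 and 326 FPKM, with log2 fold changes of -0.22 ± 0.30 and -0.41 ± 0.43 (standard error). Fbln1 (-0.61 ± 0.34) and Cygb (-0.40 ± 0.30), a globin of fibroblasts, had the smallest unadjusted p, 0.0951 and 0.201 by edgeR's quasi-likelihood F test. Chosen after their values were seen, Dcn and Lum, which code for small collagen-binding proteoglycans, were at -0.23 ± 0.26 and -0.10 ± 0.43 (standard error). Without Ad-FAM3A6 and Ad-FAM3A7 the median of the list was -0.11, and Gsn and Col1a1 were at -0.056 and -0.19, Dcn and Lum at -0.11 and -0.011.

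A list of 16 further genes of Pi16-type adventitial fibroblasts did not share 1 direction: 7 were higher and 9 lower, with a median log2 fold change of -0.27 and 0 called. Anxa3, a calcium-dependent phospholipid-binding protein, was at 117 ± 36.4 CPM (SD, n = 6) under Ad-sham and 185 ± 73.0 CPM (SD, n = 7) under Ad-FAM3A, with a log2 fold change of 0.66 ± 0.29 (standard error). Cd248, the surface protein endosialin of perivascular stromal cells, was at 65.1 ± 21.2 CPM (SD, n = 6) and 45 ± 13.5 CPM (SD, n = 7), which gave a log2 fold change of -0.53 ± 0.23 (standard error). Their unadjusted p were 0.0388 and 0.0394 and their adjusted p 0.810 by edgeR's quasi-likelihood F test, and 5.91% of all genes had an unadjusted p under 0.05. Ly6c1, a paralog of Ly6a, and Igfbp6, a binding protein of insulin-like growth factors, had the highest level, 104 and 77.8 FPKM, with log2 fold changes of -0.32 ± 0.16 and -0.52 ± 0.38 (standard error). The list's median was -0.22 without Ad-FAM3A6 and Ad-FAM3A7, with Anxa3 at 0.91, Cd248 at -0.44 and Igfbp6 at -0.25. Ly6a did not share any run of 150 bases with another gene in the annotated transcripts, nor did any other member.

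Genes of activated fibroblasts, to which Postn belongs by function, were divided as well: 8 were higher and 8 lower, with a median log2 fold change of 0.059 and 0 called. Adam12, a membrane protease of activated fibroblasts, was at 56.7 ± 19.2 CPM (SD, n = 6) under Ad-sham and 33.4 ± 8.58 CPM (SD, n = 7) under Ad-FAM3A, with a log2 fold change of -0.76 ± 0.22 (standard error), with an unadjusted p of 0.00385 and an adjusted p of 0.810 by edgeR's quasi-likelihood F test. Cilp, a cartilage-type matrix protein, was at -0.67 ± 0.32 (standard error; unadjusted p = 0.0564 from the same test). Acta2, smooth muscle actin, and Ctgf, a matricellular protein, had the highest level in the list, 2857 and 628 FPKM, with log2 fold changes of 0.42 ± 0.43 and 0.80 ± 0.43 (standard error). Without Ad-FAM3A6 and Ad-FAM3A7 the median was 0.18, with Adam12 at -0.76, Cilp at -1.01, Acta2 at 0.73 and Ctgf at 1.08, each with an adjusted p of 0.776 by edgeR's quasi-likelihood F test. Postn, at 0.49 over all aortas, thus lay beside Ctgf and opposite to Adam12 and Cilp, none of which passed the adjusted threshold.

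Around Gli1, 15 of 16 hedgehog pathway genes were tested, Shh being too low: 4 were higher and 11 lower, with a median log2 fold change of -0.090 and 0 called. The ligand Ihh (0.97 ± 0.50) and the co-receptor Cdon (-0.27 ± 0.17) had the smallest unadjusted p, 0.0749 and 0.136 by edgeR's quasi-likelihood F test, with standard errors after the ± sign. The co-receptors Gas1 and Boc had the highest level, 31.8 and 11.2 FPKM, and log2 fold changes of -0.38 ± 0.25 and -0.16 ± 0.33 (standard error). Also chosen after its value was seen, Ptch1, a receptor and target gene of the pathway, was at -0.16 ± 0.24 (standard error), near the value of Gli1 over all aortas. The median turned to 0.086 without Ad-FAM3A6 and Ad-FAM3A7, with Boc at 0.086, Gas1 at -0.18, Cdon at -0.18 and Ihh at 1.24. Without these 2 aortas Ptch1 was still at -0.16, while Gli1 was at 0.046. Around Pdgfra, 2 of 5 PDGF genes were higher and 3 lower, with a median of -0.066 and 0 called. The ligand Pdgfd (0.59 ± 0.32) and the ligand Pdgfa (0.44 ± 0.30) had the smallest unadjusted p, 0.0909 and 0.163 from the same test, and Pdgfd and Pdgfrb the highest level, 37.8 and 31.1 FPKM. Pdgfrb, the receptor of pericytes and smooth muscle, was at -0.22 ± 0.33 (standard error). Without Ad-FAM3A6 and Ad-FAM3A7 the median turned to 0.042, and Pdgfd, Pdgfa and Pdgfrb were at 0.83, 0.68 and -0.014.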

How the data were processed

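Aortic RNA from 13 mice was analysed, 1 library per aorta, 6 Ad-sham and 7 Ad-FAM3A. The authors aligned reads to GRCm38 with Hisat2 and deposited whole-number FeatureCounts counts per gene without normalization; annotation release, strand setting and the treatment of reads with several matches are not given in the sources used here. FPKM deposited by the authors are group means and were not tested; FPKM per aorta were computed here. The labels and the paper name different RNA extraction and library kits. Columns were mapped by the labels, with 0 left unmapped. For the 103 names that occur more than once, the copy on a main chromosome was taken.

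In R 4.3.3, counts were scaled by TMM, genes kept by filterByExpr (15811) and groups compared with the quasi-likelihood F test of edgeR 4.0.16, adjusting p over all genes by Benjamini-Hochberg. A call needed both an adjusted p under 0.05 and an absolute log2 fold change over 1. The standard error was the size of the log2 fold change over the square root of F. Log2 CPM (prior count 2) entered exact two-sided permutation tests, which ran over 1716 splits, whose smallest p is 0.000583. Correlations had 100000 resamples. Alternatives used DESeq2 1.42.0 and limma 3.58.1. Total counts were 14481179 to 19797407. The labels name no batch, and p-values measure the spread between these aortas. The tests were tried on simulated data.

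The members and gene lists were chosen with earlier results of these data known. Named genes are the 10 members, Fam3a, overlapping genes, the 2 genes of each pathway list with the smallest p and the 2 with the highest FPKM, and the 3 most correlated genes per member; Dcn, Lum and Ptch1 were added after their values were seen. Cell type lists for mesothelium, T and B cells (median log2 fold changes -1.66, 1.35 and 2.29) joined the correlations after seeing the data, as did the smooth muscle covariate. The sums of these lists were high in single aortas (8 of 8 B cell genes had an unadjusted p under 0.05, though their median sum was 28.8 CPM in Ad-sham and 21.5 CPM in Ad-FAM3A); the medians of endothelium and macrophages were -0.15 and -0.069, with 0 genes called in any. Further lists, of lymphatic endothelium, brown adipocytes, Schwann cells, sympathetic neurons, cardiac and skeletal muscle and kidney, had median log2 fold changes of -0.022, -0.70, -0.51, -0.72, -0.58, 0.39 and -0.75, with 0 genes called in each. Sequences are RefSeq's on GRCm38.p6; 9 of 10 members had the table's start and end in the annotation used here, the exception being Pi16.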

Additional observations from a re-analysis of the deposited data

Results flagged for a closer look

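In groups of 6 or 7 aortas, 1 aorta stood far from the others in 9 of 50 groups of values examined. Chance alone gives about 2.5 of 50. The groups reuse the same aortas, with genes that vary together and ratios that share a denominator. The 9 are therefore not separate observations, and no excess over chance can be read from them. In 6 of the 9 the aorta that stood apart was Ad-FAM3A6. That aorta had the highest B and T cell markers and the lowest smooth muscle and fibroblast sums.

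On the log2 CPM scale, Ad-FAM3A6 stood below the other 6 Ad-FAM3A aortas for Cd34 (6.53, the others 7.26 to 7.58), Gli1 (0.97, the others 2.71 to 3.93) and Postn (9.27, the others 10.65 to 11.62), and for the mean of the 5 PDGF genes (5.11, the others 5.98 to 6.56). As a percent of the summed general fibroblast CPM, the same aorta stood above the others for Ly6a (5.0%, the others 1.41 to 2.88%) and Dpp4 (0.845%, the others 0.0286 to 0.183%). Its Ly6a in CPM was 231, the median of its group, so that the high share came with a low fibroblast sum.

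Ad-FAM3A2 had the highest share of Postn, 35% against 13.3 to 21.2% in the other 6. Among Ad-sham aortas, Ad-sham3 was low for Cd34 (7.11 log2 CPM, the others 7.58 to 7.78) and Ad-sham2 was high for Gli1 as a share of the fibroblast sum (0.140% against 0.0544 to 0.0784%).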

How the results depend on the processing

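The count of differentially expressed genes was 0 under each alternative but DESeq2, run without the filter on low counts, which called 10, of which 0 were members. The members' median log2 fold change was below 0 in every setting, and no member reached an adjusted p under 0.05 in any, the smallest being 0.579. Of 240 alternative fold changes of single members 7 turned direction. Dpp4 was at -0.12 by limma-voom, -0.33 with the replicate block and -0.79 without Ad-FAM3A6 and Ad-FAM3A7, and between -0.45 and 0.35 on leaving out each aorta. Without Ad-FAM3A6 and Ad-FAM3A7, Gli1 was at 0.046 and Serpinf1 at 0.020.

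Same-numbered aortas of the 2 groups had correlations of deviations from -0.33 to 0.45, and only number 3 had its best match in its own number. These values show no pairing by number, and whether same-numbered aortas shared a batch was not tested. With the replicate block, which leaves out Ad-FAM3A7 for want of a partner, 0 genes were called and 596 had an unadjusted p under 0.05, against 934.

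The ratio to general fibroblast genes turned direction in 36 of 159 alternatives. With Dcn alone as the reference, Dpt was at -0.046 and Cd34 at -0.059. With Pdgfra, Dcn and Lum, Dpt was at -0.086, Cd34 at -0.099 and Ly6a at -0.036, and Postn at 0.69 (exact permutation p = 0.0501). Without Ad-FAM3A6 and Ad-FAM3A7, Dpt was at -0.092, Cd34 at -0.082, Ly6a at -0.19, Gli1 at 0.13, Dpp4 at -0.66 and Serpinf1 at 0.045. Leaving out each aorta, the ratio of Pdgfra ran from -0.15 to 0.076, of Dpt from -0.12 to 0.13, of Cd34 from -0.14 to 0.13, of Ly6a from -0.12 to 0.21, of Gli1 from -0.14 to 0.14, of Dpp4 from -0.37 to 0.43 and of Serpinf1 from -0.12 to 0.025. The causes were not tested. Depth limits Gli1 and Dpp4 most, with 30 and 52 reads in their lowest aortas.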
